A study of Homo sapiens with 4 samples.

Results

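The transcripts of 10 genes that receive and carry the activin and Nodal signal were followed by RNA-seq in 4 libraries from the human embryonic stem cell line HUES8. The genes are the activin receptors ACVR1B, ACVR2A and ACVR2B, the signal carriers SMAD2, SMAD3 and SMAD4, the DNA-binding partner FOXH1, and the inhibitors SMAD7, SKIL and TGIF1. They were chosen by symbol among the 59050 genes of the deposited count table, and all 10 were among the 17564 genes with enough counts for a test. Per the labels, 2 libraries have the genotype CPT2 KO and 2 the genotype WT, and the treatment field reads WT in all 4. All cells were grown undifferentiated on Matrigel in mTeSR1, a defined medium that itself supplies TGF-beta. CPT2 is the mitochondrial carnitine palmitoyltransferase that feeds long-chain fatty acids into oxidation, and the study's title links fatty acid metabolism to acetylation and nuclear entry of SMAD3 in definitive endoderm. Whether the CPT2 KO cells are 1 clone, and whether replicates came from separate cultures, is not given in the sources used here, so the spread behind each p-value is that of these libraries and may be technical.

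Activin and Nodal bind type II receptors, ACVR2A or ACVR2B, which phosphorylate the type I receptor ACVR1B. ACVR1B in turn phosphorylates SMAD2 and SMAD3, which join SMAD4, enter the nucleus and reach many target genes through FOXH1. SMAD7 blocks the receptors and is itself induced by the signal, as is SKIL, which represses SMAD complexes, while TGIF1 is a homeodomain corepressor of SMAD2 and SMAD3. In human embryonic stem cells this pathway maintains NANOG at moderate strength and drives mesendoderm and endoderm when it is strong.

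The libraries differed in ways that touch the values below. CPT2 was higher under the CPT2 KO label, with 233 and 170 counts against 52 and 72 in the libraries labelled WT. The log2 fold change was 1.78 (SE 0.27, edgeR adjusted p = 0.0218), and CPT2 was not called with limma-voom (adjusted p = 0.0634). Its exons share 1151 bases with AL606760.2 (0 to 2 counts) and 99 with C1orf123, both on the opposite strand. Whether the labels are exchanged or the edit does not lower the transcript was not tested. Every direction is therefore stated between libraries as labelled. Totals ranged from 16887789 to 20460031 counts. Replicate 1 labelled WT stood apart, at a chi-square over degrees of freedom equal to 39.6 against its own replicate and to 45.8 and 53.3 against the libraries labelled CPT2 KO, while the other pairs stood between 10.5 and 12.6. Summed over 8 hypoxia response genes, the level in CPM (counts relative to the TMM-scaled library total) was 359 and 227 under the CPT2 KO label, and 898 and 234 in replicates 1 and 2 labelled WT. BNIP3 gave 593 of the 898 CPM, and each of these genes except CA9 was highest in replicate 1 labelled WT. Mitochondrially encoded genes held 4.15% of the counts in that library and 7.21% to 7.84% in the others. All 8 pluripotency markers were detected, at a summed 9341 and 10588 CPM in the libraries labelled CPT2 KO and 8523 and 9485 CPM in those labelled WT, with 0 called in edgeR. The 6 mesendoderm markers summed to 126 and 31.9 CPM in the libraries labelled CPT2 KO and to 10.6 and 7.43 CPM in those labelled WT, and 7 definitive endoderm markers to 157 and 26.6 CPM (CPT2 KO label) against 12.7 and 8.20 CPM (WT label). CER1 alone gave 124 of the 157 CPM and 11.1 of the 26.6 CPM under the CPT2 KO label. SOX17 and GATA6, which define endoderm, were at 0 counts in both libraries labelled WT and at 7 to 74 in those labelled CPT2 KO. FOXA2 and GATA4 were also higher under the CPT2 KO label. HHEX overlapped between the groups (log2 fold change 0.28), and CXCR4 had 59 and 32 counts (CPT2 KO label) against 28 and 29 (WT label). The 6 neuroectoderm markers summed to 21.4 and 19.8 CPM (CPT2 KO label) against 30.1 and 31.1 CPM (WT label). Of 4 tested, edgeR called 2 lower, SOX1 and SIX6, where it called 0.0569% of all tested genes lower. DESeq2 called 2 lower and limma-voom 0. SOX1 had 15 and 5 counts in the libraries labelled CPT2 KO and 82 and 130 in those labelled WT. SIX6 had 2 and 1 counts (CPT2 KO label) against 24 and 67 (WT label). Both genes entered the test through the libraries labelled WT, so these 2 calls are a description. SIX3 had a log2 fold change of -0.27 and PAX6 one of 1.01, neither called in edgeR. LHX2 had 3 and 4 counts in the libraries labelled CPT2 KO and 0 in those labelled WT. The 6 fibroblast genes summed to 218 and 196 CPM (CPT2 KO label) against 193 and 222 CPM (WT label), with LUM and DCN at 0 to 3 counts in every library. In these bulk libraries fewer cells of a type and less RNA per cell cannot be told apart.

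All 10 transcripts were present under both labels, and none of the 10 genes passed the test. edgeR called 0 of 10 higher and 0 of 10 lower at an adjusted p under 0.05, where the share called among all tested genes was 0.359% higher and 0.0569% lower (0.416% in either direction). DESeq2 and limma-voom also called 0 of 10, against backgrounds of 0.848% higher and 0.262% lower (1.11% in all) with DESeq2 and of 0.159% higher and 0.0114% lower (0.171% in all) with limma-voom. With so low a background, a count of 0 in 10 is near what the whole table gives. At an unadjusted p under 0.05, 1 of the 10, SMAD7, stood out, against 9.04% of all tested genes. The median log2 fold change was 0.054 over the 10 genes and 0.0017 over all tested genes, and the median absolute change was 0.20 and 0.21. Replicates of the 10 genes lay closer together than those of the table, with a median absolute log2 difference of 0.11 between the libraries labelled CPT2 KO and 0.14 between those labelled WT, against 0.21 and 0.26 over all tested genes. The members held 268 to 6422 counts per library. They were not compared with genes of like counts, so the part of count level in this closeness was not tested.

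**Figure D1:**
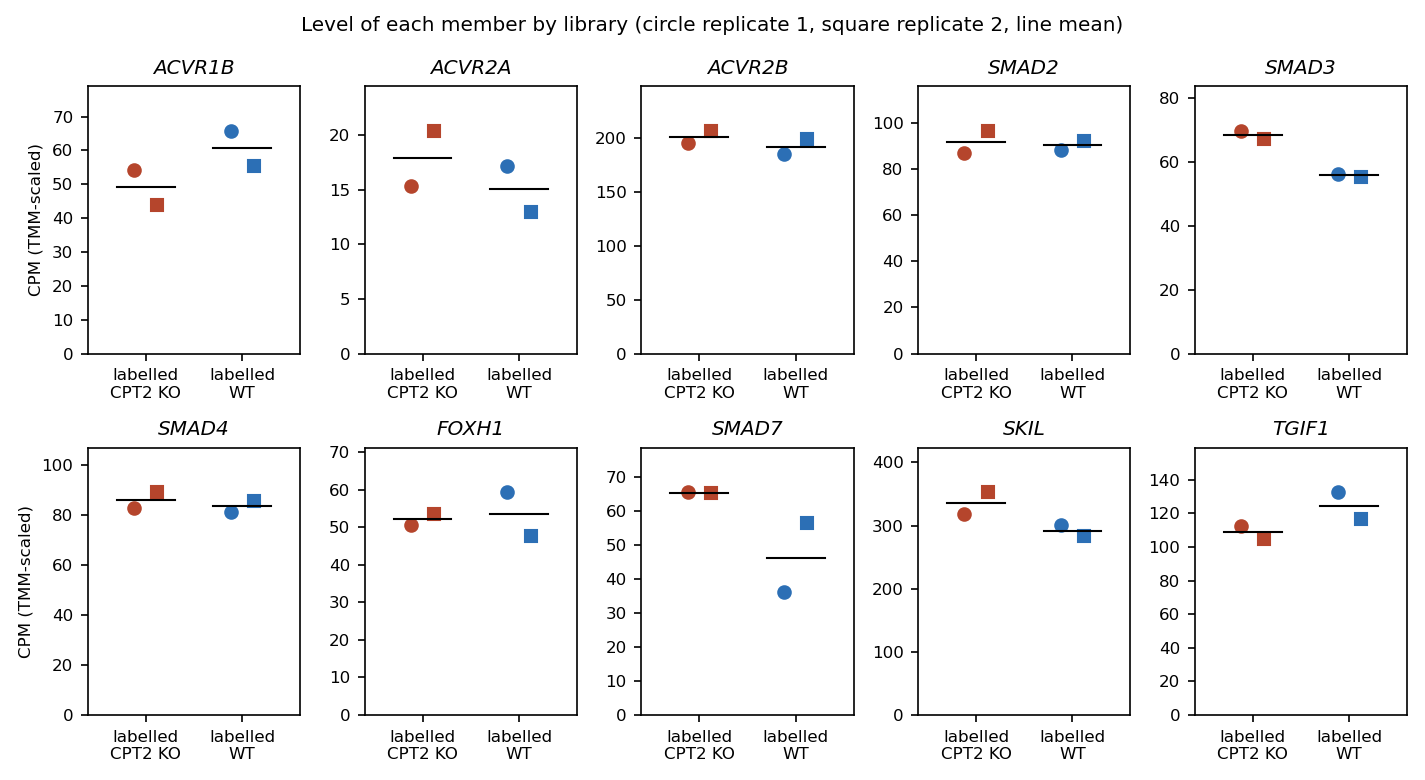
Level of each of the 10 genes in CPM by library, with the libraries labelled CPT2 KO in red at the left of each panel and those labelled WT in blue at the right. Circles are replicate 1, squares replicate 2 and lines group means (n = 2 each). SMAD3 shows both red points above both blue points, and SMAD7 shows a low replicate 1 labelled WT at 36.2 CPM.

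ACVR1B, the type I receptor for activin and Nodal (chromosome 12, 51951667 to 51997078, GRCh38, plus strand, protein coding), was the only receptor among the members whose values were lower under the CPT2 KO label. Its level was 54.3 CPM in replicate 1 and 44.0 CPM in replicate 2 labelled CPT2 KO, against 65.9 CPM in replicate 1 and 55.5 CPM in replicate 2 labelled WT. The groups did not overlap, but replicate 2 labelled WT lay just above replicate 1 labelled CPT2 KO. The log2 fold change was -0.30 (SE 0.17, edgeR adjusted p = 0.618), with a 95% interval of the fold of 0.628 to 1.05. It stayed negative with each library left out, between -0.46 and -0.16.

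ACVR2B, a type II receptor (chromosome 3, 38453851 to 38493142, plus strand), was the most abundant by reads of the 3 receptors among the members. It was also among the steadiest of the 10 genes. It had 195 and 207 CPM in the libraries labelled CPT2 KO and 185 and 199 CPM in those labelled WT. The groups overlapped, and the log2 fold change was 0.067 (SE 0.13, edgeR adjusted p = 0.905; 95% interval of the fold 0.858 to 1.28). ACVR2A, the other type II receptor (chromosome 2, 147844517 to 147930826, plus strand), was the least abundant of the 10 genes by reads. It had 15.3 and 20.4 CPM in the libraries labelled CPT2 KO and 17.2 and 13.0 CPM in those labelled WT. The groups overlapped, with a higher and a lower library in each, and the log2 fold change of 0.24 (SE 0.23, edgeR adjusted p = 0.766) was 0.45 without replicate 1 labelled WT and 0.028 when replicate 2 labelled CPT2 KO was left out. Its exons share 430 bases with ORC4 on the opposite strand, a gene with 975 to 1219 counts and a log2 fold change of 0.0043, so part of its reads is uncertain. The 3 receptors together came to 264 and 271 CPM in the libraries labelled CPT2 KO and to 268 and 267 CPM in those labelled WT.

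SMAD2 and SMAD4 had a narrow range across the 4 libraries. SMAD2, a receptor-activated SMAD (chromosome 18, 47808957 to 47931146, minus strand), had 86.8 and 96.7 CPM in the libraries labelled CPT2 KO and 88.2 and 92.3 CPM in those labelled WT. SMAD4, the common partner (chromosome 18, 51028394 to 51085045, plus strand), had 82.8 and 89.3 CPM (CPT2 KO label) against 81.5 and 85.7 CPM (WT label). In both genes the groups overlapped, and the highest library was 11.4% (SMAD2) and 9.55% (SMAD4) above the lowest. The 95% intervals of the fold were 0.822 to 1.26 for SMAD2 (log2 fold change 0.023, SE 0.14, edgeR adjusted p = 0.973) and 0.834 to 1.27 for SMAD4 (0.041, SE 0.14, 0.947). These intervals bound the differences that these libraries allow and do not show that the levels are equal. SMAD4 shares 967 exon bases on the same strand with AC091551.1, which had 0 counts in all 4 libraries.

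SMAD3, the receptor-activated SMAD named in the study's title (chromosome 15, 67063763 to 67195195, plus strand), was the carrier with higher values in the libraries labelled CPT2 KO. Its level was 69.8 CPM in replicate 1 and 67.3 CPM in replicate 2 labelled CPT2 KO, against 56.3 CPM in replicate 1 and 55.3 CPM in replicate 2 labelled WT. Both pairs of replicates lay close together and the groups did not overlap. The log2 fold change was 0.30 (SE 0.14, unadjusted p = 0.0587, edgeR adjusted p = 0.569), a fold of 1.23 with a 95% interval of 0.991 to 1.52, so the difference did not pass the test. Its value moved little when a library was left out, between 0.27 and 0.33, and was 0.31 without replicate 1 labelled WT. Reads from AC087482.1, an antisense gene that shares 182 exon bases with SMAD3, numbered 3 to 8 per library.

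FOXH1, the forkhead partner that brings SMAD2 and SMAD3 complexes to DNA (chromosome 8, minus strand), overlapped between the groups. It had 50.6 and 53.7 CPM in the libraries labelled CPT2 KO and 59.4 and 47.7 CPM in replicates 1 and 2 labelled WT. The highest and the lowest value were both in the group labelled WT. The log2 fold change was -0.038 (SE 0.16, edgeR adjusted p = 0.960; 95% interval of the fold 0.761 to 1.25), and its sign changed with the library left out. Of its 2503 exon bases, 791 are shared with KIFC2 on the opposite strand (247 to 363 counts, log2 fold change -0.072), so its reads are uncertain where strand was not used in counting.

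**Figure D2:**
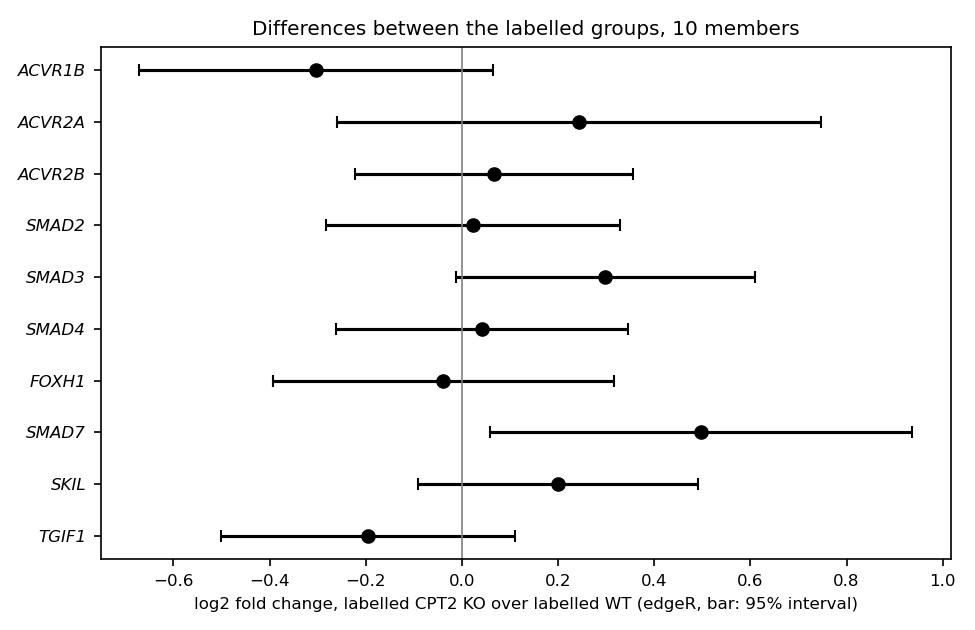
Log2 fold change of each gene, CPT2 KO label over WT label, with its 95% interval from the edgeR fit (4 libraries). The interval of SMAD7, 0.057 to 0.94, lies above 0 before adjustment and that of SMAD3, -0.013 to 0.61, just includes it.

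Among the inhibitors, SMAD7 had the widest range of the 10 genes and SKIL the highest level. The promoter windows of both, and of SMAD4 as a gene of narrow range, are given here because SMAD7 and SKIL are known targets of the pathway. They run from 250 bases before to 50 after the start listed first for each gene (RefSeq, GRCh38.p14), 5′ to 3′ on the gene's strand. Capitals mark GTCT and its reverse complement AGAC, the 4-letter core that SMAD3 and SMAD4 bind. The windows lie at chr18:48950916-48951215 (minus strand) for SMAD7, chr3:170357465-170357764 (plus strand) for SKIL and chr18:51029963-51030262 (plus strand) for SMAD4. Those of SMAD7 and SMAD4 lie wholly inside the gene limits from GENCODE given in the text. Their listed starts are therefore not the outermost starts of these genes.
SMAD7: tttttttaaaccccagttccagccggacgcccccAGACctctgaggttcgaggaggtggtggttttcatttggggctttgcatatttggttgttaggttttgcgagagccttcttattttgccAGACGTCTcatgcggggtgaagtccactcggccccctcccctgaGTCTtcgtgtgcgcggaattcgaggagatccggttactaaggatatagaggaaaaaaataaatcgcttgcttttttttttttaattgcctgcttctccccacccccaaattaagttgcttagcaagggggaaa
SKIL: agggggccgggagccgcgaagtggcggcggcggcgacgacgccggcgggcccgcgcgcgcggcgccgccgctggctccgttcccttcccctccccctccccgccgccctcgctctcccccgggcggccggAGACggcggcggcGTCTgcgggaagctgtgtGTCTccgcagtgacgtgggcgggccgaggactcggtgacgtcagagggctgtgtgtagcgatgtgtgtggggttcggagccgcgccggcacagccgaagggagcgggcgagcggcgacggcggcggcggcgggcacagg
SMAD4: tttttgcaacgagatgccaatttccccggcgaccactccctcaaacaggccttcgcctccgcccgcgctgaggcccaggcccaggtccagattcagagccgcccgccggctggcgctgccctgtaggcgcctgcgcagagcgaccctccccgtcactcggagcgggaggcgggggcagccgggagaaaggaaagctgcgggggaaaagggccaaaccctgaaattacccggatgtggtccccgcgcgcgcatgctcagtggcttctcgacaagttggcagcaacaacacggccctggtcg

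The SMAD7 window held 4 cores, of which an AGAC and a GTCT abut as AGACGTCT, a palindrome whose first base is at -127 from the listed start. The SKIL window held 3 cores and the SMAD4 window 0. At least 1 core was found in 84.0% of 35116 RefSeq promoter windows of the same length, 4 or more in 13.7%, and AGACGTCT in 0.165%. The palindrome GTCTAGAC, searched in the same way, was in 0.202% of windows and in none of the windows of the 9 members that matched. Among these 9 first-listed windows, TGIF1 held 3 cores, ACVR2A and SMAD2 2 each, SMAD3 1, and ACVR1B and ACVR2B 0. SMAD2 is also a gene of narrow range, so the 0 of SMAD4 does not stand for such genes. GC content ran from 41.3% (ACVR2A) to 82.3% (ACVR1B), and SMAD3, SMAD7, SMAD2, ACVR1B and TGIF1 have further listed starts that were not shown, so these matches describe the windows alone.

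SMAD7 (chromosome 18, 48919853 to 48952052, minus strand) had 65.4 CPM in replicate 1 and 65.1 CPM in replicate 2 labelled CPT2 KO, against 36.2 CPM in replicate 1 and 56.3 CPM in replicate 2 labelled WT. The libraries labelled CPT2 KO were both above those labelled WT, and the spread lay within the WT label. Replicate 1 over replicate 2 had a 95% counting interval of 0.926 to 1.09 in the group labelled CPT2 KO, and was 0.643 (0.583 to 0.707) in the group labelled WT. Over all 4 libraries the log2 fold change was 0.50 (SE 0.20, unadjusted p = 0.0303, edgeR adjusted p = 0.493), a fold of 1.41 with a 95% interval of 1.04 to 1.91. It was 0.21 without replicate 1 labelled WT (edgeR unadjusted p = 0.234) and 0.85 without replicate 2 labelled WT (edgeR adjusted p = 0.00173). In the fit without replicate 2 the WT label rests on replicate 1 alone, and 3.02% of all tested genes were called higher there and 3.84% lower (6.86% in all). SMAD7 was the only one of the 10 genes called in any of the 14 alternatives. The part that the state of replicate 1 labelled WT, with its high hypoxia genes, has in the SMAD7 difference was not tested beyond these values.

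SKIL, the SnoN corepressor of SMAD complexes (chromosome 3, 170357678 to 170396835, plus strand), had 318 and 353 CPM in the libraries labelled CPT2 KO and 301 and 283 CPM in those labelled WT. The groups did not overlap, and the log2 fold change was 0.20 (SE 0.13, edgeR adjusted p = 0.669), with a 95% interval of -0.092 to 0.49. TGIF1, the corepressor on the short arm of chromosome 18 (3411608 to 3459978, plus strand), had 113 and 105 CPM in the libraries labelled CPT2 KO and 133 and 117 CPM in those labelled WT. Here both libraries labelled CPT2 KO were the lower ones, and the log2 fold change was -0.20 (SE 0.14, edgeR adjusted p = 0.693; 95% interval of the fold 0.706 to 1.08). It was -0.10 without replicate 1 labelled WT. The 3 inhibitors thus had values on both sides, SMAD7 and SKIL above and TGIF1 below the libraries labelled WT, and none passed the test.

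Counting the 10 genes by overlap, 3 (SMAD3, SMAD7 and SKIL) had both libraries labelled CPT2 KO above both labelled WT, 2 (ACVR1B and TGIF1) had both below, and 5 overlapped. Across all tested genes, 21.1% lay wholly higher and 19.8% wholly lower (40.9% in all), so 3 and 2 of 10 are close to the share over the table.

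**Figure D3:**
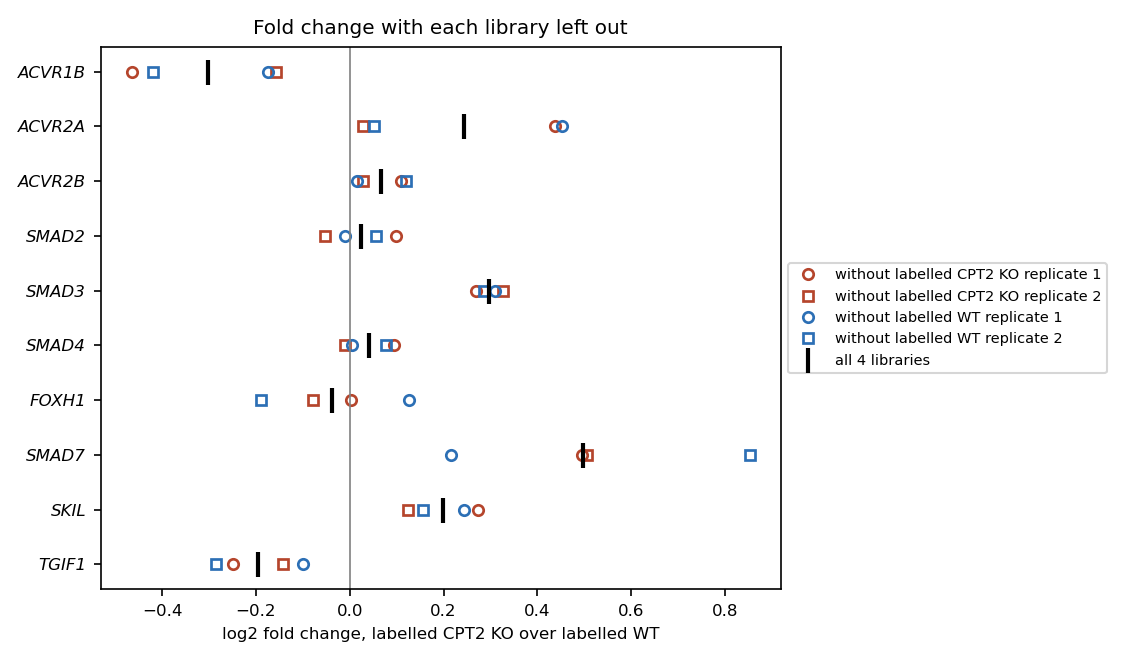
Log2 fold change of each gene with all 4 libraries (black bar) and with each library left out (red: a library labelled CPT2 KO left out, blue: one labelled WT left out, circle replicate 1, square replicate 2). SMAD3 stays between 0.27 and 0.33, while SMAD7 ranges from 0.21 to 0.85 according to which library labelled WT is used.

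Ratios between members within a library do not depend on library scaling. SMAD3 counts over SMAD2 counts were 0.805 and 0.696 in replicates 1 and 2 labelled CPT2 KO, and 0.638 and 0.600 in replicates 1 and 2 labelled WT. The groups did not overlap, with means of 0.751 ± 0.0767 for the CPT2 KO label and 0.619 ± 0.0271 for the WT label (SD, n = 2 each), but the 95% counting intervals of replicate 2 labelled CPT2 KO (0.645 to 0.752) and replicate 1 labelled WT (0.590 to 0.690) did. SMAD2 over SMAD4 was nearly constant, at 1.05 and 1.08 in the libraries labelled CPT2 KO and 1.08 and 1.08 in those labelled WT. SMAD7 over SKIL, a pair of inhibitors that both respond to the signal, was 0.206 and 0.184 in the libraries labelled CPT2 KO and 0.120 and 0.199 in replicates 1 and 2 labelled WT. Here replicate 2 labelled WT lay between the libraries labelled CPT2 KO and replicate 1 stood alone. ACVR1B over ACVR2B, type I over type II receptor, was 0.279 and 0.213 in the libraries labelled CPT2 KO and 0.357 and 0.280 in those labelled WT, so replicate 1 labelled CPT2 KO and replicate 2 labelled WT were nearly alike. These ratios were chosen after values were seen and were not tested, and a changed ratio shows unequal values, not which gene differed.

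**Figure D4:**
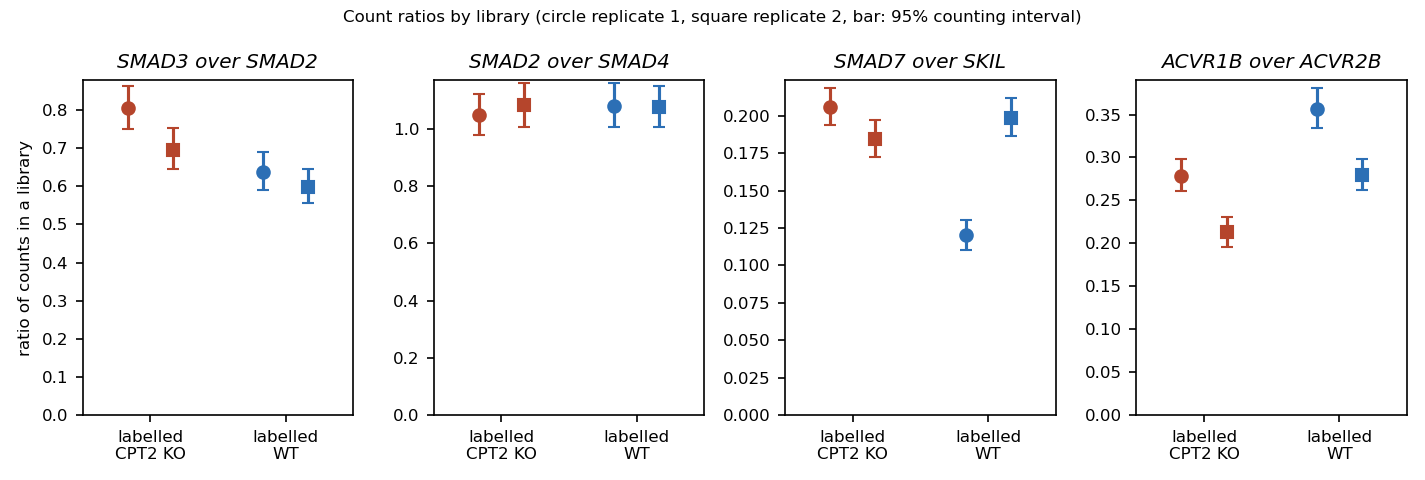
Ratio of counts of paired members in each library, labelled CPT2 KO (red) left of labelled WT (blue), with circles for replicate 1, squares for replicate 2 and bars for 95% counting intervals. SMAD2 over SMAD4 stays between 1.05 and 1.08, and SMAD7 over SKIL is lowest, at 0.120, in replicate 1 labelled WT.

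Compared per length, as mean CPM per kilobase of the gene length in the table over the 4 libraries, SKIL led with 40.3, followed by FOXH1 with 21.1 and TGIF1 with 14.2. ACVR2B (12.5), SMAD7 (11.1) and ACVR1B (9.71) came next, then SMAD3 (6.67) and SMAD4 (6.46), and ACVR2A (2.56) and SMAD2 (2.50) were lowest. The ranges over the libraries overlapped between neighbours from TGIF1 down to ACVR1B, between SMAD3 and SMAD4 and between ACVR2A and SMAD2, so their order is not set. The table's length joins all exons of a gene, and for SMAD2 it is 36426 bases. Divided by the median length of the coding transcripts in the GENCODE 29 basic set (10445 bases for SMAD2 and 1530 for SMAD3), SKIL still led with 108, TGIF1 came next with 73.7, SMAD3 stood at 40.6, SMAD2 at 8.71 and ACVR2A was lowest with 3.19 CPM per kilobase. With this length SMAD7 (43.6) and ACVR1B (30.7) also lay above FOXH1 (21.1) and ACVR2B (16.6). Which transcripts these cells use was not measured. The order of SMAD3, SMAD7, ACVR1B, FOXH1 and ACVR2B among themselves therefore turns on the length used.

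The patterns most like those of the 2 most variable members over the 4 libraries were looked up among 11767 other tested genes with a mean of at least 5 CPM. By the distance between centred log2 CPM, BTBD6 (0.042), SESTD1 (0.054) and JDP2 (0.065) were nearest to SMAD7. SESTD1, for example, had 69.2 and 70.4 CPM in the libraries labelled CPT2 KO and 39.0 and 58.0 CPM in those labelled WT. ZNF439 (0.063), CEP85L (0.073) and KBTBD4 (0.082) were nearest to ACVR2A. With 4 points this likeness is a description of these libraries.

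Around the 10 genes, 83 other genes of the pathway in 9 lists were examined, of which 78 had enough counts for the test. Of these, 6 were called higher in the libraries labelled CPT2 KO and 0 lower in edgeR, where 0.359% of all tested genes were called higher and 0.0569% lower. Among them were the ligand NODAL, its antagonists LEFTY1 and LEFTY2, the target FGF8, and CAV1, the caveolin that takes part in receptor internalisation. NODAL had 43.7 and 31.8 CPM in the libraries labelled CPT2 KO against 2.71 and 3.98 CPM in those labelled WT (a log2 difference of 3.49, SE 0.26, with edgeR adjusted p = 0.000416), and LEFTY2 10.9 and 9.70 CPM (CPT2 KO label) against 0.434 and 0.388 CPM (WT label; 4.63, SE 0.40, 0.000841). These values are many times apart, where the largest fold among the 10 members was 1.41. Reads of LEFTY1 and LEFTY2, which are close paralogues, may be shared between the pair.

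For LEFTY1 the log2 difference was 4.15 and for FGF8 5.06 (edgeR adjusted p = 0.00114 and 0.000841). NODAL, LEFTY1, LEFTY2 and FGF8 were called in all 14 alternatives, while CAV1 (26.5 and 17.4 CPM (CPT2 KO label) against 6.02 and 4.08 CPM (WT label), log2 fold change 2.13, edgeR adjusted p = 0.00970) was no longer called with limma-voom (0.0525) or when replicate 1 labelled CPT2 KO was left out (0.0728). The target list was written with earlier results known, and LEFTY1, LEFTY2 and FGF8 stood at 0.631 CPM or less in the libraries labelled WT and entered the test through those labelled CPT2 KO, so its 5 calls of 14 tested are a description. Mesendoderm and endoderm markers differed between the same libraries. Of 6 mesendoderm markers edgeR called 0, limma-voom 0 and DESeq2 4 higher. An unadjusted edgeR p under 0.05 was found for 4 of them, among which EVX1 was lower under the CPT2 KO label. Of 5 tested endoderm markers edgeR called 0 (3 at an unadjusted p under 0.05), limma-voom 0 and DESeq2 2 higher. Over all tested genes, 9.04% had an unadjusted edgeR p under 0.05, and DESeq2 called 0.848% higher. TBXT, GSC, CER1, GATA4 and FOXA2 had 0 to 9 counts in each library labelled WT. They entered the test through the libraries labelled CPT2 KO, so these marker counts are a description. MIXL1 and EOMES made up most of the mesendoderm sum in the libraries labelled CPT2 KO, with 1348 and 360 counts for MIXL1 in the libraries labelled CPT2 KO and 38 and 55 in those labelled WT. EVX1 went the other way, with 11 and 11 counts in the libraries labelled CPT2 KO and 66 and 47 in those labelled WT, and LHX1 overlapped between the groups. Their part in these differences was not tested.

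The other receptors and SMADs gave 0 calls in edgeR. Among 7 other receptors of the family the median log2 fold change was -0.024, with ACVR1 at 0.40, BMPR1A at 0.27 and ACVR1C at -0.86 (edgeR adjusted p = 0.549, 0.569 and 0.612). Among 4 other SMADs it was 0.026, with values of 0.27 for the inhibitor SMAD6, 0.12 for SMAD1 and -0.065 for SMAD5 (edgeR adjusted p = 0.710, 0.857 and 0.914). An unadjusted p under 0.05 was found for 1 of the 7 receptors and 0 of the 4 SMADs, near the 9.04% over all tested genes.

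Of 9 coactivators and acetylation enzymes, 0 were called and the median was -0.050. EP300, an acetyltransferase that can modify SMAD3, had 162 and 149 CPM in the libraries labelled CPT2 KO and 201 and 201 CPM in those labelled WT (log2 fold change -0.38, SE 0.13; edgeR gave an adjusted p = 0.411). The groups did not overlap, its value lay between -0.44 and -0.31 in the 14 alternatives, and it was called in 0 of them. Its relative CREBBP had 72.7 and 64.7 CPM (CPT2 KO label) against 79.6 and 88.4 CPM (WT label; a log2 difference of -0.29, edgeR adjusted p = 0.591), and KAT2B, another SMAD acetyltransferase, stood near 2.03 and 1.99 CPM (CPT2 KO label) against 1.41 and 1.41 CPM (WT label; 0.51, 0.726).

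Of 9 corepressors and inhibitors beyond the members, 0 were called and the median was 0.029. PMEPA1, a target of the pathway that binds and restrains SMAD2 and SMAD3, had 46.3 and 48.1 CPM in the libraries labelled CPT2 KO and 23.2 and 29.9 CPM in those labelled WT (log2 fold change 0.83, SE 0.17, edgeR adjusted p = 0.102). It passed with DESeq2 and without replicate 2 labelled WT, and was 0.66 without replicate 1 labelled WT. TGIF2, the paralogue of TGIF1, had 124 and 106 CPM (CPT2 KO label) against 150.4 and 126 CPM (WT label; a log2 difference of -0.26, edgeR adjusted p = 0.624), and SIN3A, a scaffold for histone deacetylases, had a log2 fold change of -0.22 (0.638). Of 12 ubiquitin enzymes that act on SMADs and receptors, edgeR called 0 (median -0.17), with -0.30 for USP9X, -0.27 for USP11 and -0.24 for NEDD4L (edgeR adjusted p = 0.627, 0.629 and 0.699). Replicate 1 labelled WT was the highest library for all of these 3, at 518, 129 and 76.6 CPM. Without that library the log2 fold change was -0.013 for USP9X, -0.090 for USP11 and 0.0081 for NEDD4L, and without replicate 2 labelled WT it was -0.54, -0.43 and -0.45 in the same order, where USP9X was called (edgeR adjusted p = 0.0239). Of 9 anchoring and nuclear transport genes, 1 was called, CAV1, and the median was -0.11.

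**Figure D5:**
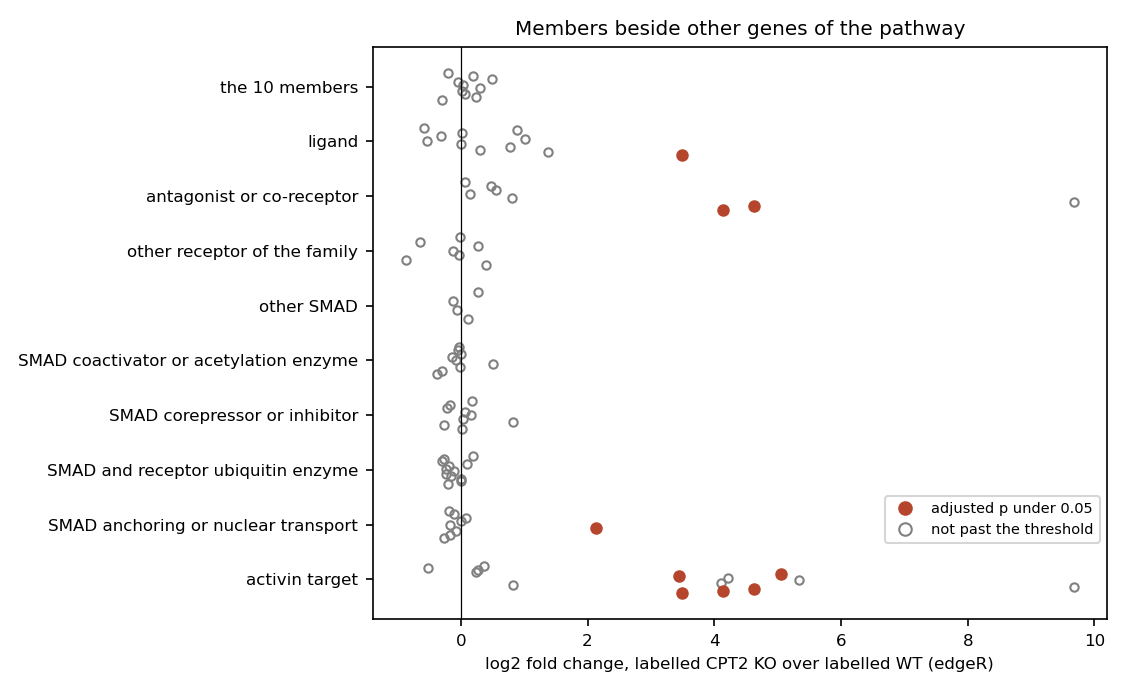
Log2 fold change of each tested gene, CPT2 KO label over WT label, for the 10 members (top row) and 9 lists of other pathway genes, where NODAL, LEFTY1, LEFTY2, CER1 and PMEPA1 appear in 2 lists each. Filled red points passed an adjusted p under 0.05 in edgeR (6 genes), and the members lie between -0.30 and 0.50 with 0 past the threshold.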

How the data were processed

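RNA-seq counts of 4 HUES8 libraries were compared. The authors deposited raw read counts per gene symbol with gene lengths; HISAT2 2.1.0, featureCounts 1.6.4 and hg38 are named in the submitters' processing notes. The annotation release, the strand setting and the treatment of multimapping reads: not given in the sources used here. Genes were filtered with filterByExpr by group and fitted in edgeR 4.0.16 (glmQLFit and glmQLFTest, R 4.3.3, TMM scaling, robust, group as the only term). Calls used a Benjamini-Hochberg adjusted p under 0.05 across the 17564 tested genes. Standard errors are the log2 fold change over the square root of F, and 95% intervals use the t distribution with the fit's degrees of freedom. Counting intervals are exact binomial and cover counting error only. Alternatives used DESeq2 1.42.0, limma-voom (limma 3.58.1), other scalings and filters, a replicate term and each library left out with the tested genes kept. The fit was tested on simulated data. The members and lists were chosen with earlier results of these data known. Named genes are the members, CPT2, and from each list the called genes or else the 3 with the lowest p, plus the nearest patterns of 2 members, except 1 gene that is not reported here; the ratios and the single marker genes were added after values were seen. Loci are from GENCODE 29 (GRCh38), and the table's lengths of 5 of the 10 members equal its union of exons. Promoters are from RefSeq (GRCh38.p14), where 9 of 10 members matched.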

Additional observations from a re-analysis of the deposited data

How the results depend on the processing

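Scaling by DESeq2 size factors, upper quartile or library size, a stricter filter, the legacy estimate and leaving out mitochondrially encoded genes kept the counts over all genes within 1.5 times of 63 higher and 10 lower. The counts were 101 and 23 with no filter, 149 and 46 with DESeq2 and 28 and 2 with limma-voom. With each library left out they ranged from 31 to 531 higher and from 2 to 674 lower: 31 and 2 without replicate 1 and 81 and 2 without replicate 2 labelled CPT2 KO, 113 and 36 without replicate 1 and 531 and 674 without replicate 2 labelled WT. A group left with 1 library was assumed to vary like the other. Members called higher ranged from 0 to 1 (SMAD7), and members called lower stayed at 0. With the replicate number as a block, 233 genes were higher and 140 lower, and 0 members, and PMEPA1 passed (log2 fold change 0.84, edgeR adjusted p = 0.00822). The numbers are not known to pair the libraries: with 2 pairs the deviations of same-numbered libraries have a single correlation, 0.17, and nothing else ties them.

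ACVR1B, ACVR2A, ACVR2B, SMAD3, SMAD7, SKIL and TGIF1 kept their sign in all 14 alternatives. With each library left out the log2 fold change ranged from -0.053 to 0.099 for SMAD2, from -0.011 to 0.094 for SMAD4 and from -0.19 to 0.13 for FOXH1, all 3 changing sign. In the other alternatives they kept it. The members had at least 268 counts in each library, and whether depth limits their intervals was not tested.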
